A study of Homo sapiens with 6 samples.

Results

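The death receptor and caspase-8 axis was followed in U251 cells, a human glioma line, through 10 genes: TNFRSF10A, TNFRSF10B, TNFRSF10C, TNFRSF10D, FAS, TNFRSF1A, TNFRSF21, CFLAR, FADD and CASP8. The genes were taken by symbol through their Ensembl identifiers, and each was found once among the 61496 features of the deposited tables. Of these 10 genes, 9 were among the 27514 features that passed the expression filter, and TNFRSF10D did not pass. RNA sequencing had been run on 6 libraries, 3 from untreated U251 cells (control) and 3 from U251 cells exposed to sevoflurane gas, a volatile anaesthetic, for 2 h (Sev). Both groups were the same established line grown in DMEM with fetal bovine serum, with no engineered allele named in the labels. The treatment protocol listed sevoflurane at 1.7%, 3.4% and 5.1%, and the labels did not say which of these a sequenced library had received. The published description of this comparison names the highest of them. The labels did not say that replicates came from separate cultures, so that p-values measure the spread between these libraries, which may be technical. A single line does not stand for glioma in general.

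Death receptors are membrane proteins of the tumour necrosis factor receptor family that carry a death domain on the inner side of the membrane. When the ligand TRAIL binds TNFRSF10A or TNFRSF10B, or FAS ligand binds FAS, the receptor gathers the adaptor FADD, which in turn gathers procaspase-8 so that it cleaves and activates itself. CFLAR, also called c-FLIP, resembles caspase-8 but lacks its catalytic activity and limits this activation. TNFRSF10C and TNFRSF10D bind TRAIL without a working death domain and are known as decoy receptors. Glioma lines are known to differ widely in their sensitivity to TRAIL.

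Start site sequence was read for the members that RefSeq windows of build GRCh38.p14 covered. In all, 13 windows from 250 bases before to 50 bases after a gene start matched 6 of the members, and none was read for TNFRSF10A, TNFRSF10B, TNFRSF10C or TNFRSF10D. Letters were searched on both strands for SP1 (GGGCGG), NF-kB (GGG, then NNNTN, then CC), ATF4 and CHOP (TGATGNAA), FOXO (GTAAACA), STAT (TTCNNNGAA) and IRF (GAAA, then NN, then GAAA). SP1 letters stood in 8 of the 13 windows, against 45% of all 35116 windows of this length. Of the FAS windows 2 overlap, and the SP1 match at -60 of the first is the one at -176 of the other, so that 1 site is counted in both. NF-kB letters stood in 3 of the 13, against 21.5% of all windows. STAT letters and IRF letters each stood in 1 of the 13, in the same CASP8 window, against 7.66% and 3.57% of all windows. No member window held the ATF4 and CHOP letters, found in 3.62% of all windows, or the FOXO letters, found in 3.42%. The windows below are those of the members with NF-kB letters, and of TNFRSF1A as a member with neither kind. SP1 and NF-kB matches are in capitals.
CASP8 (chr2:201233213-201233512, + strand): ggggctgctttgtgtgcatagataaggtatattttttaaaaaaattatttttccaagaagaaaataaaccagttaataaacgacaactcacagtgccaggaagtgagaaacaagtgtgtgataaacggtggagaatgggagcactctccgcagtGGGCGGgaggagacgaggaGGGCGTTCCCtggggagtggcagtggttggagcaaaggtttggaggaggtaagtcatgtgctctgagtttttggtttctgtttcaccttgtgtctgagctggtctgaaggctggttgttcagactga
CFLAR (chr2:201118466-201118765, + strand): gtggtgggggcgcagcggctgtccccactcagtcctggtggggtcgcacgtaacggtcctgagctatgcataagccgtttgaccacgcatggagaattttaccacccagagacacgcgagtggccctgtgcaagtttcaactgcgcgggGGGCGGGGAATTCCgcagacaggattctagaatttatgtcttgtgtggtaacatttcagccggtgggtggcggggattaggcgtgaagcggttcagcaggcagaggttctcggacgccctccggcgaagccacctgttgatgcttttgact
FAS (chr10:88990548-88990847, + strand): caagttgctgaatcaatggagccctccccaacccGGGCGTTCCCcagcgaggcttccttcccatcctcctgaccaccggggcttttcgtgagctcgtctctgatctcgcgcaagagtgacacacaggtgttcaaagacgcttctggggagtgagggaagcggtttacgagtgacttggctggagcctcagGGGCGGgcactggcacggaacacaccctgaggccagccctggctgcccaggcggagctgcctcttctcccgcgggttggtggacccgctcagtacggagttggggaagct
TNFRSF1A (chr12:6342027-6342326, - strand): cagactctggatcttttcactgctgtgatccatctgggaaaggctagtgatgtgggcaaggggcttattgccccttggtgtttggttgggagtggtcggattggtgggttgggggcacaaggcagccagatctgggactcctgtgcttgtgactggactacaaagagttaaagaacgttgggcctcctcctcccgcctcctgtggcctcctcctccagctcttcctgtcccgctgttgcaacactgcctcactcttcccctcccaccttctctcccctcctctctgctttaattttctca
Counting the base just before the gene start as -1, the CASP8 window held its SP1 letters from -96 and its NF-kB letters from -77. The CFLAR window held SP1 letters from -101 that overlapped the NF-kB letters from -97. The FAS window held NF-kB letters from -216 and SP1 letters from -60. The NF-kB match was the same run of letters in CASP8 and FAS, GGGCGTTCCC, and a different one in CFLAR, GGGGAATTCC. A match describes the letters and does not show that a factor was bound.

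Libraries held between 38624292 and 46318311 counts assigned to features. Pearson's r of log2 CPM (counts divided by library size, after scaling by edgeR's trimmed mean of M-values, TMM) was 0.974 to 0.982 within groups and 0.921 to 0.929 between them, and no library stood apart from its group. The difference between Sev and control was broad: 43.7% of the features tested passed an adjusted p of 0.05 in edgeR's quasi-likelihood test, 22.1% higher and 21.5% lower in Sev. All 8 glial and glioma markers, VIM, NES, CD44, S100B, SOX2, GFAP, PTPRZ1 and OLIG2, passed the filter. Their summed level was 7639 to 8592 CPM in control and 8638 to 9116 CPM in Sev. Most of it was VIM, with means of 5478 CPM in control and 6141 CPM in Sev. Among the 8, 4 were called lower (S100B, SOX2, PTPRZ1 and OLIG2) and 1 higher (CD44). Of the 5 leukocyte markers, 4 had at most 15 counts in every library, with CD3E and AIF1 at 0, and the fifth, CD68, had 88 to 198 counts and did not pass (log2 fold change 0.67, adjusted p = 0.111). The summed level of the 5 was 2.22 to 4.72 CPM in control and 4.71 to 5.24 CPM in Sev. The 3 epithelial markers were also at or below 15 counts, with a summed level of at most 0.292 CPM. The summed level of 4 endothelial markers was 38.5 to 41.3 CPM in control and 49.1 to 64.1 CPM in Sev, with 2 called higher and 0 lower. That of 3 neuronal markers was 16.2 to 18.2 CPM and 22.5 to 24.8 CPM, with 1 called higher and 0 lower. Those called were PECAM1, KDR and SYT1, and the part of these markers in the results was not tested. From bulk RNA, fewer cells with a transcript and less of it per cell cannot be told apart.

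TNFRSF10A and TNFRSF10B, the death-domain TRAIL receptors, were higher in Sev, and the other 7 members tested did not pass the test in either direction. Of the 9 members, 2 were called higher and 0 lower. In edgeR, 2 members that fell short of a call, TNFRSF10C and CASP8, had an unadjusted p under 0.05 with lower values in Sev. DESeq2's Wald test also called 0 members lower, but other settings called some. TNFRSF1A and CASP8 were called lower when libraries were scaled by their totals alone, and TNFRSF1A in limma on the log2 of the deposited FPKM. With a library left out, 0 or 1 member was called lower. Over all features tested, 22.1% were called higher, 21.5% lower and 43.7% in either direction. The threshold named in the study's methods, a log2 fold change beyond 1 with p under 0.05, was passed by TNFRSF10A alone among the members, against 23.5% of all features tested, 11.4% higher and 12% lower. The median log2 fold change of the 9 members was -0.09, and that of all features tested -0.0056. TNFRSF10A entered the test through its Sev libraries, since its control libraries were below the filter, so its place among the members called is given as a description of that gene.

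**Figure D1:**
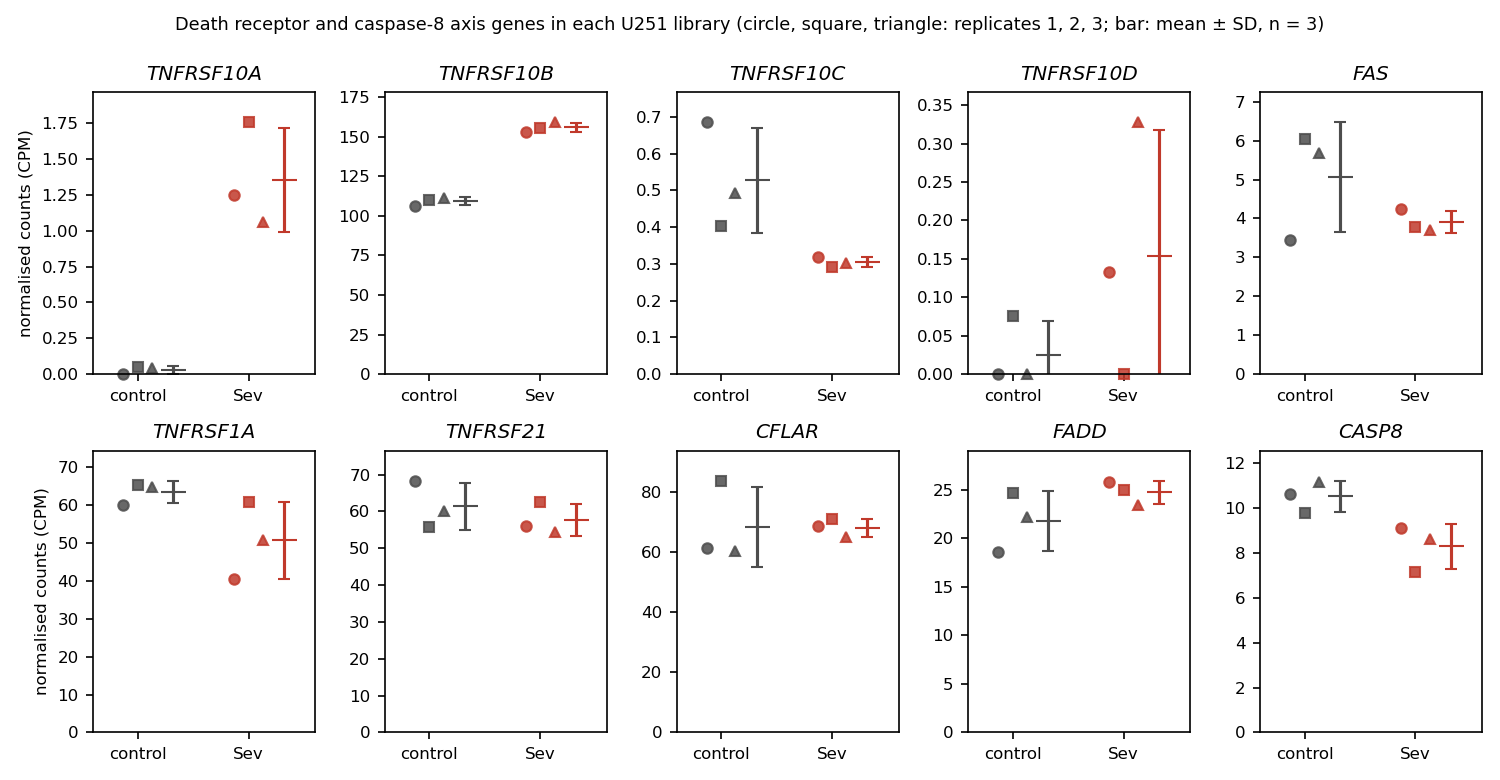
Normalised counts (CPM, linear axes from 0, 1 panel a gene) of the 10 axis genes in the 6 U251 libraries; circles, squares and triangles are replicates 1, 2 and 3, and bars the mean ± SD of 3 libraries, control in grey and Sev in red. TNFRSF10A and TNFRSF10B lie higher in all 3 Sev libraries, TNFRSF10C and CASP8 lie lower in all 3, and the groups overlap in the other 6 panels.

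TNFRSF10A (ENSG00000104689, chromosome 8, 23190452 to 23225126, minus strand, GRCh38) encodes the TRAIL receptor also named DR4. It was counted 0, 2 and 2 times in the control libraries and 47, 66 and 42 times in the Sev libraries. The gene was close to undetected in control cells and still low in Sev cells. In normalised counts this was 0.0305 ± 0.0268 CPM in control and 1.35 ± 0.360 CPM in Sev (SD, n = 3 each), and the groups did not overlap. The fitted log2 fold change was 5.33 with a standard error of 0.56, and the adjusted p was 0.000389. Because the control counts were this low, the ratio is better read with its counting interval. With 4 counts in control and 155 in Sev, and the libraries' effective depths taken into account, the ratio of rates was 44.0 with an exact 95% interval of 16.8 to 164, which covers counting error only. With a library left out, the fitted value stayed between 4.80 and 5.76. Such a start from near 0 was shared with other genes. Of all features tested, 228 had at most 3 counts in every control library, 83 of them protein-coding, and all 228 were called higher, as a feature of that kind could enter the test through Sev alone.

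TNFRSF10B (ENSG00000120889, chromosome 8, 23020133 to 23069179, minus strand), which encodes the TRAIL receptor DR5, had 107, 110 and 111 CPM in control and 153, 156 and 159 CPM in Sev. All 3 Sev libraries lay above all 3 control libraries, and the replicates of each group lay close together. The means were 109 ± 2.46 CPM and 156 ± 3.09 CPM (SD, n = 3 each). The log2 fold change was 0.51 with a standard error of 0.069, a fold of 1.43 with a 95% interval of 1.28 to 1.59, and the adjusted p was 0.000991. The difference did not reach the study's threshold of 1 on the log2 scale. By raw counts the gene was the most abundant of the axis, with 4361 to 5412 counts in control and 5769 to 6312 in Sev.

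The decoy receptors were low in these cells. TNFRSF10C (ENSG00000173535, chromosome 8, 23102590 to 23117437, plus strand), a decoy anchored in the membrane by a lipid, was counted 29, 16 and 24 times in control and 12, 11 and 12 times in Sev. All 3 Sev libraries were lower, also in normalised counts, where the levels were 0.685, 0.403 and 0.494 CPM in control and 0.318, 0.292 and 0.302 CPM in Sev. The log2 fold change was -0.79 with a 95% interval of -1.57 to -0.0067, and the adjusted p of 0.0938 missed the threshold. TNFRSF10D (ENSG00000173530, chromosome 8, 23135588 to 23164030, minus strand), a decoy with a truncated death domain, had 0, 3 and 0 counts in control and 5, 0 and 13 in Sev. It was too low for the test, and a Sev library at 0 overlapped with control. The rate over the 3 Sev libraries was 6.81 times that over the 3 control libraries, with a counting interval of 1.99 to 36.1 that leaves out the spread between libraries.

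The 4 TRAIL receptor genes lie within 205 kb of chromosome 8, so that genes beside them were examined with them. Of 19 annotated features within 100 kb of the cluster, the receptors included, 12 were tested, 6 were called higher and 1 lower, against 22.1% and 21.5% of all features tested. The 6 were TNFRSF10A, TNFRSF10B, TNFRSF10A-DT, ENSG00000245025 and, named after their values were seen, R3HCC1 and LOXL2. Of these, TNFRSF10A and TNFRSF10A-DT entered the test through Sev alone. TNFRSF10A-DT (ENSG00000246582), a divergent transcript that overlaps the start of TNFRSF10A by 656 bases on the opposite strand, had 0, 3 and 0 counts in control and 31, 37 and 30 in Sev. It was higher in every Sev library, as TNFRSF10A was, and like TNFRSF10A it had at most 3 counts in every control library, so it entered the test through Sev alone and its call (adjusted p = 0.00151) is a description. The fitted log2 fold change of 5.03 rests on the 3 counts of control replicate 2, without which it was 8.14, and it was 4.50 without control replicate 1 and 4.42 without control replicate 3. The ratio of rates was 37.1, with an exact counting interval of 12.3 to 183. Inside TNFRSF10A, on the opposite strand, the pseudogene RPL23AP55 was at 0 in all 3 control libraries and had 11, 5 and 5 counts in Sev, and TNFRSF10A-AS1, which overlaps its end by 224 bases, had 0, 6 and 3 counts in Sev and 0 in control. The libraries were strand-specific, but whether the counting used strand was not given in the sources used here. Reads in the bases that TNFRSF10A shares with its antisense neighbours therefore cannot be told apart, and how many fell there was not measured.

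Near TNFRSF10B, ENSG00000245025, a noncoding gene 797 bases past its end on the same strand, was also higher, with 302, 276 and 332 counts in control and 338, 447 and 481 in Sev (log2 fold change 0.66, adjusted p = 0.0102), a call lost in all 3 settings that ran limma on the log2 of the deposited FPKM (adjusted p 0.0659 to 0.117). RHOBTB2, which overlaps the end of TNFRSF10B by 67 bases on the opposite strand, had a log2 fold change of 0.056 and an adjusted p of 0.634. ENSG00000246130, which overlaps the start of TNFRSF10B by 951 bases on the opposite strand, had 9 to 28 counts a library, and its log2 fold change of -0.47 did not pass the test. RHOBTB2 had 1624 to 2027 counts a library, and how many reads fell in the shared bases was not measured. TNFRSF10C shares far more of its span. ENSG00000284956 covers 12947 bases of it on the same strand, with 2, 4 and 16 counts in control and 0, 8 and 0 in Sev, and was too low for the test. ENSG00000284948, which overlaps its start by 969 bases on the same strand, was called lower, with 110, 50 and 116 counts in control and 39, 36 and 9 in Sev (log2 fold change -1.50, adjusted p = 0.0443). That call was lost when any library other than control replicate 2 was left out, with adjusted p of 0.0529 to 0.128, and also with no expression filter (0.0698) or on log2(FPKM + 1) without a filter (0.06). The counts of TNFRSF10C are therefore uncertain.

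**Figure D2:**
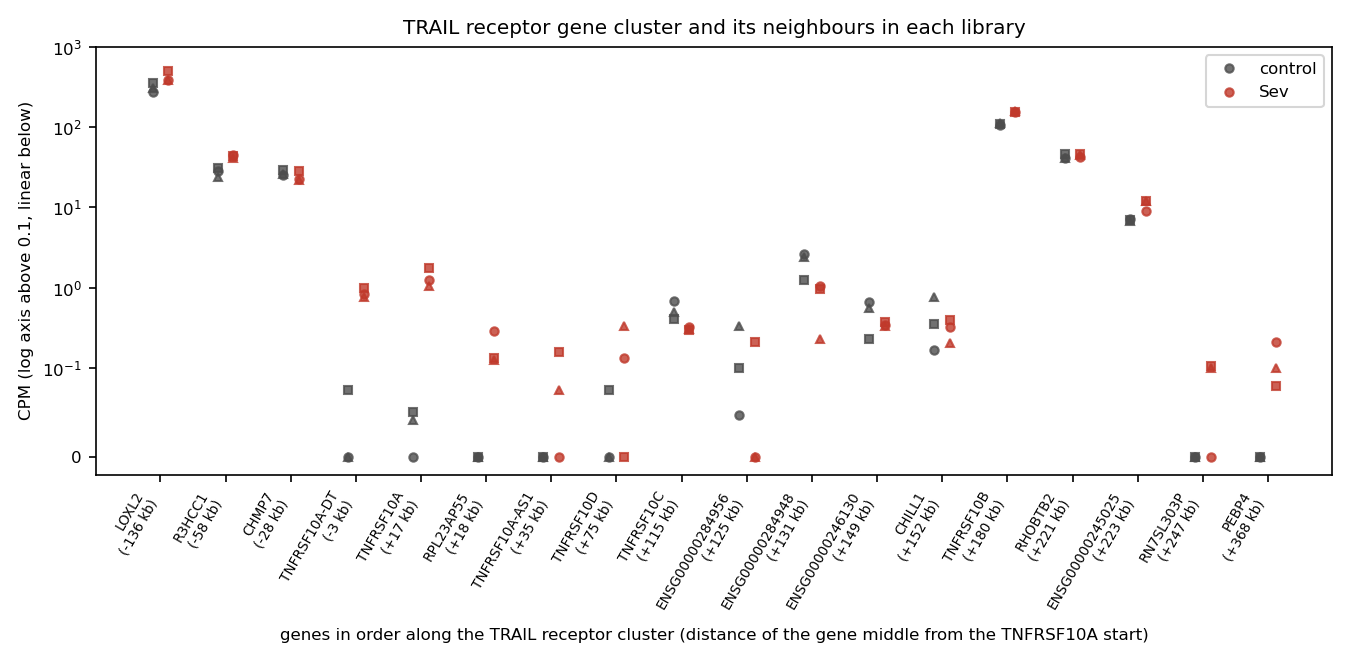
Normalised counts (CPM, log axis above 0.1 and linear below) of the annotated features in and around the TRAIL receptor cluster, in gene order with the distance of each gene's middle from the TNFRSF10A start; circles, squares and triangles are replicates 1, 2 and 3. The 3 Sev libraries lie above 1 CPM for TNFRSF10A and the control libraries near 0, TNFRSF10A-DT beside it shows the same separation, and TNFRSF10B lies above 100 CPM in both groups.

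FAS, TNFRSF1A and TNFRSF21, the death receptors outside the TRAIL cluster, did not pass the test. FAS (ENSG00000026103, chromosome 10, 88990582 to 89015785, plus strand), the receptor of FAS ligand, had 3.45, 6.05 and 5.68 CPM in control and 4.24, 3.77 and 3.70 CPM in Sev. Control replicate 1 lay below all 3 Sev libraries and the other control libraries above them, so the groups overlapped. The log2 fold change was -0.37 with a 95% interval of -0.90 to 0.16 (adjusted p = 0.221). With control replicate 1 left out it was -0.59 with an adjusted p of 0.0327, so the missed call rests on that library. ACTA2, which encodes smooth muscle actin and overlaps the start of FAS by 758 bases on the opposite strand, had a log2 fold change of -0.14 and an adjusted p of 0.48, and ENSG00000275693 inside FAS had at most 1 count.

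TNFRSF1A (ENSG00000067182, chromosome 12, 6328757 to 6342114, minus strand), the main receptor of TNF, had 59.96, 65.3 and 64.9 CPM in control and 40.5, 60.8 and 50.8 CPM in Sev. The control libraries lay close together and the Sev libraries were spread, and Sev replicate 2 lay among the controls. The log2 fold change was -0.32 with a 95% interval of -0.65 to 0.0071 (adjusted p = 0.102). Without Sev replicate 2 it was -0.47 and passed (adjusted p = 0.0205), and it also passed at -0.47 when libraries were scaled by their totals alone (adjusted p = 0.0232). TNFRSF21 (ENSG00000146072, chromosome 6, 47231532 to 47309905, minus strand), also named DR6, had 68.3, 55.7 and 60.1 CPM in control and 56.01, 62.5 and 54.4 CPM in Sev. The groups overlapped, and the interval of its log2 fold change, -0.33 to 0.15, left room for a small difference in either direction (adjusted p = 0.516).

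CASP8, the initiator caspase of this pathway, did not pass the test either. CASP8 (ENSG00000064012, chromosome 2, 201233443 to 201287711, plus strand) had 10.6, 9.78 and 11.2 CPM in control and 9.09, 7.15 and 8.62 CPM in Sev. All 3 Sev libraries lay below all 3 control libraries. The log2 fold change was -0.34 with a 95% interval of -0.67 to -0.020 (standard error 0.14), and the adjusted p was 0.0806. When libraries were scaled by their totals alone, the log2 fold change was -0.48 and the adjusted p 0.0364, a scaling that shifted the median of all features by -0.14. Groups that do not overlap were common in this comparison. They were found for 56.5% of all features tested and for 4 of the 9 members, TNFRSF10A, TNFRSF10B, TNFRSF10C and CASP8.

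FADD (ENSG00000168040, chromosome 11, 70203163 to 70207390, plus strand), the adaptor between receptor and caspase, had 18.5, 24.6 and 22.2 CPM in control and 25.8, 25.0 and 23.4 CPM in Sev. Control replicate 2 lay within the Sev range, so the groups overlapped. Its log2 fold change was 0.18 with a 95% interval of -0.11 to 0.47 (adjusted p = 0.268). ENSG00000254721, inside FADD on the opposite strand, was at 0 in all 6 libraries. CFLAR (ENSG00000003402, chromosome 2, 201116104 to 201176687, plus strand), the inhibitor that competes with caspase-8 for FADD, had 61.3, 83.8 and 60.3 CPM in control and 68.7, 71.0 and 65.0 CPM in Sev. Control replicate 2 stood above the rest, and the other control libraries lay below all 3 Sev libraries. The log2 fold change was -0.0050 with a 95% interval of -0.32 to 0.31 (adjusted p = 0.979). That interval spans folds of 0.803 to 1.24, and its sign changed with the library left out, from -0.094 to 0.16. CFLAR-AS1, which overlaps 17546 bases of CFLAR on the opposite strand, had 123 to 172 counts in control and 116 to 169 in Sev, against 2578 to 3326 for CFLAR. The pseudogene RPL38P5 inside CFLAR, also on the opposite strand, had 3 to 19 counts and did not pass (adjusted p = 0.083), and IMPDH1P10, RNU7-45P and ENSG00000234431 inside it had at most 7. CASP10, the caspase that lies between CFLAR and CASP8, had a log2 fold change of 0.73 that did not pass the test (adjusted p = 0.116).

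**Figure D3:**
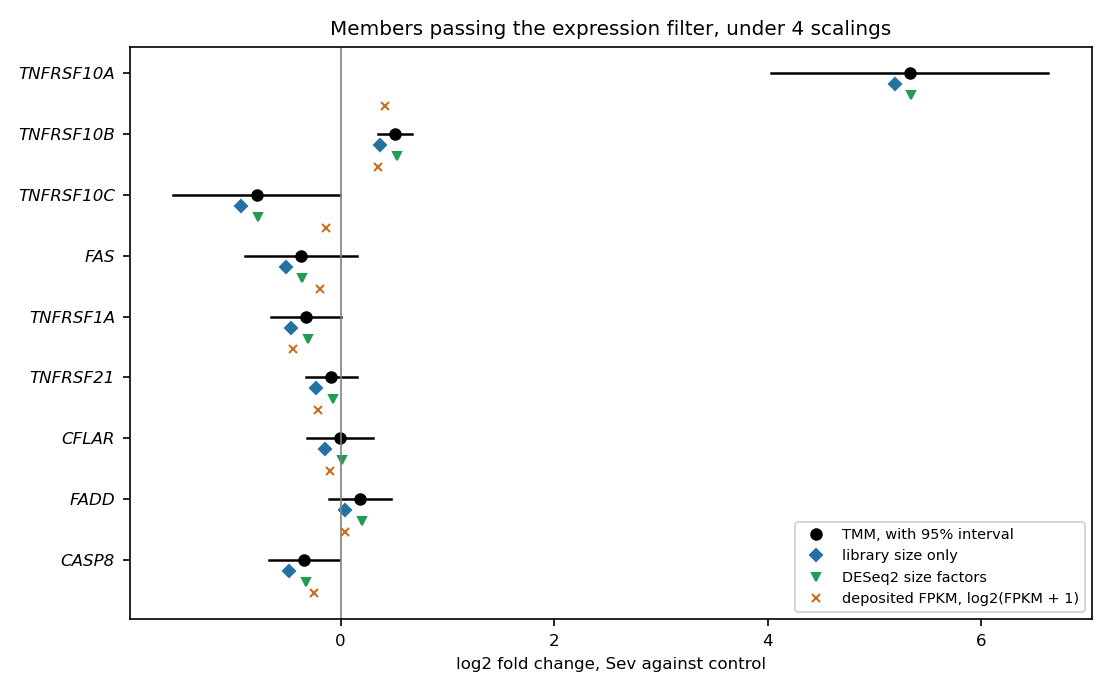
Log2 fold change of Sev over control for the 9 members tested, with the edgeR estimate under TMM scaling and its 95% interval in black and the estimates under 3 other scalings beside it; the log2(FPKM + 1) scale understates the change of low genes such as TNFRSF10A. TNFRSF10A and TNFRSF10B lie above 0 under all 4 scalings, and CFLAR lies on both sides of 0.

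Levels were compared between genes in the deposited FPKM, which is divided by a length for each gene. In control the order of mean FPKM was TNFRSF10B at 18.6, TNFRSF21 at 14.5, TNFRSF1A at 13.5, FADD at 10.1, CFLAR at 2.58, CASP8 at 1.22, FAS at 0.753 and TNFRSF10C at 0.232, followed by TNFRSF10A at 0.00579 and TNFRSF10D at 0.00408. For these last genes the deposited FPKM was no exact rescaling of the counts. The ranges of TNFRSF21 and TNFRSF1A overlapped, as did those of TNFRSF10A and TNFRSF10D, and the other neighbours in the order did not overlap. In Sev the order was TNFRSF10B at 24.0, TNFRSF21 at 12.3, FADD at 10.3, TNFRSF1A at 9.73, CFLAR at 2.33, CASP8 at 0.873, FAS at 0.527, TNFRSF10A at 0.343, TNFRSF10C at 0.115 and TNFRSF10D at 0.0309. Here FADD and TNFRSF1A overlapped and the other neighbours did not. The changes of place were those of TNFRSF10A, which stood below TNFRSF10C in control and above it in all 3 Sev libraries, and of FADD and TNFRSF1A, which cannot be ordered in Sev. The length implied by counts, library totals and FPKM was 27704 to 27959 bases for CFLAR. All its annotated exons joined span 22529 bases and its longest coding transcript 14672. For CASP8 the implied length was 8952 to 9118, against 7243 and 2930. For FAS it was 6999 to 7102, against 4253 and 2563, and for TNFRSF1A 4919 to 4968, against 4005 and 2223. The implied length also exceeded the exons of TNFRSF21 (4417 to 4457 against 3595) and FADD (2264 to 2284 against 1841). In those genes the joined exons equal the longest coding transcript, so an implied length is no exact divisor. Set against their longest coding transcripts, the FPKM of CFLAR, CASP8, FAS and TNFRSF1A is low for their counts. With CPM per kb of the longest coding transcript, TNFRSF1A came first in control at 28.5 and TNFRSF10B next at 26.4, and TNFRSF10B came first in Sev at 37.6.

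Ratios within a library do not depend on its depth, and they are given as levels with no test. The ratio of TNFRSF10B to TNFRSF1A in FPKM was 1.42, 1.34 and 1.37 in control and 3.03, 2.05 and 2.51 in Sev. The ratio was higher in every Sev library than in any control library. The ratio of TNFRSF10B to CASP8 was 14.8, 16.3 and 14.5 in control and 24.6, 31.9 and 27.0 in Sev, again without overlap. Both of these ratios were chosen after the data were seen. The size of a ratio depends on the lengths used. Per kb of the longest coding transcript, the mean of TNFRSF10B to TNFRSF1A was 0.925 in control and 1.69 in Sev, and that of TNFRSF10B to CASP8 was 7.36 and 13.4.

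The ratio of the death-domain TRAIL receptors to the decoys, TNFRSF10A and TNFRSF10B over TNFRSF10C and TNFRSF10D, was 59.0, 99.3 and 89.8 in control and 165, 223 and 136 in Sev. It rests on decoy counts of 11 to 29 a library, and in CPM the same ratio had means of 204 ± 41.6 and 378 ± 146. The ratio of FADD to CASP8 was 6.99, 9.96 and 7.88 in control and 11.3, 13.9 and 10.8 in Sev, without overlap. That of CFLAR to CASP8, the inhibitor to its target, was 1.89, 2.77 and 1.75 in control and 2.46, 3.23 and 2.45 in Sev. Control replicate 2, the library with the most CFLAR, lay within the Sev range, so the groups overlapped. The means were 2.14 ± 0.553 and 2.71 ± 0.450 (SD, n = 3 each). Per kb of the longest coding transcript they were 1.32 ± 0.346 and 1.67 ± 0.275, and those of FADD to CASP8 were 3.32 ± 0.629 and 4.80 ± 0.663.

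**Figure D4:**
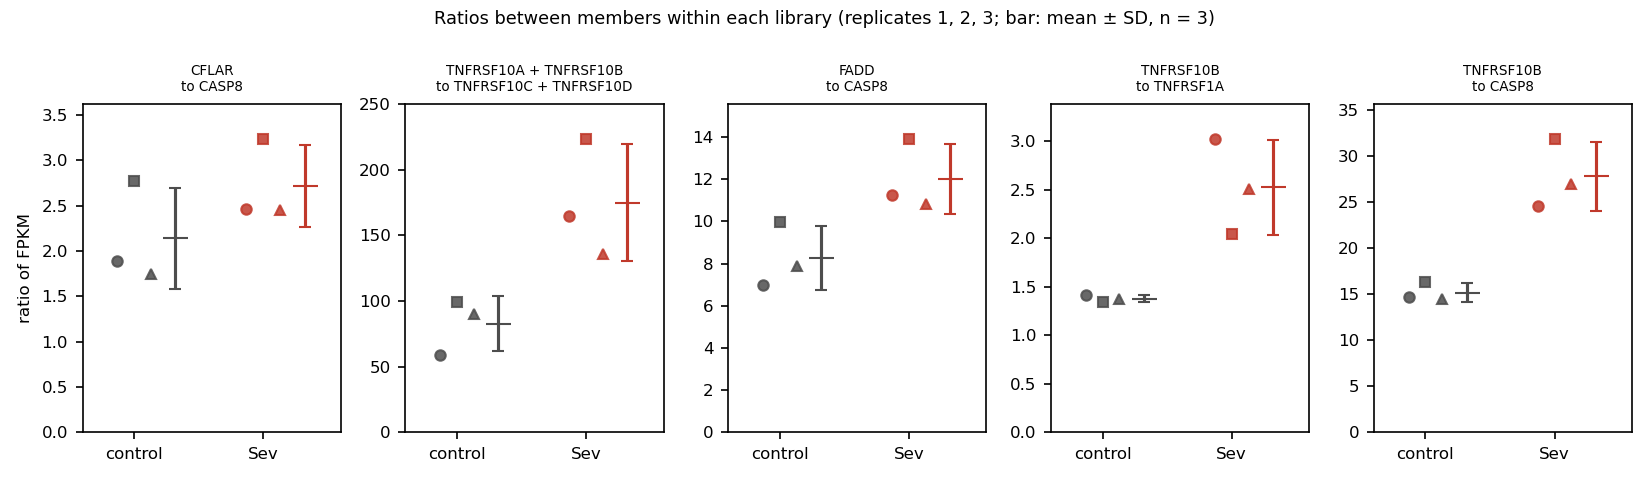
FPKM ratios between members in the 6 libraries (linear axes from 0); circles, squares and triangles are replicates 1, 2 and 3, and bars the mean ± SD of 3 libraries. The CFLAR to CASP8 ratio overlaps between control and Sev, and the other ratios are higher in all 3 Sev libraries.

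Beyond the members, 50 genes of the pathway were examined in 5 lists, of which 43 were tested, 13 were higher and 9 lower in Sev, 51.2% against the background of 43.7%. The number higher was 8 without control replicate 1 and also 8 without control replicate 3. Scaling by library size alone gave 9 higher and 12 lower, and limma on the log2 of the deposited FPKM gave 6 higher and 10 lower. Apart from TNFSF10, ligand transcripts were scarce. TNFSF10, which encodes TRAIL, had 258, 270 and 264 counts in control and 196, 218 and 220 in Sev, with a log2 fold change of -0.15 (adjusted p = 0.45). FASLG had 0 counts in all 3 control libraries and 11, 0 and 5 in Sev, and TNF was counted in a single library, 4 times in Sev replicate 2. LTA, which encodes lymphotoxin alpha, had 9, 0 and 7 counts in control and 14, 10 and 44 in Sev. TNFSF15 had 0, 3 and 6 counts in control and 4, 13 and 8 in Sev. These 4 ligands were too low for the test.

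Of 7 other receptors, 5 were tested, 2 rose and 2 fell, with a median log2 fold change of -0.30, against 22.1% higher and 21.5% lower over all features tested. EDAR, the ectodysplasin receptor, had 0.645 ± 0.0825 CPM in control and 3.17 ± 1.13 CPM in Sev (log2 fold change 2.29, adjusted p = 0.00106). NGFR, the low-affinity neurotrophin receptor with a death domain, had a log2 fold change of 1.07 (adjusted p = 0.0208), lost without control replicate 1 (0.96, adjusted p = 0.0755) or control replicate 2 (1.05, adjusted p = 0.0604), and lost in all 3 FPKM settings (adjusted p 0.0782 to 0.17). TNFRSF25, the death receptor DR3, fell by 1.63 on the log2 scale (adjusted p = 0.000379), from 10.9 ± 1.87 CPM to 3.52 ± 0.214 CPM. It overlaps PLEKHG5 on the same strand, and their reads may be shared. EDA2R, a further ectodysplasin receptor, fell by 0.85 (adjusted p = 0.00415).

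Of 19 genes of the receptor complexes, 18 were tested, 6 rose and 4 fell, with a median log2 fold change of -0.041, against 22.1% higher and 21.5% lower over all features tested. The 6 became 2 without control replicate 1 and also without control replicate 3, 3 without Sev replicate 1, 3 by library size alone or with no expression filter, and 2 in the FPKM settings. RIPK1, the kinase that joins death receptor complexes and can steer them to survival or death, had 56.8, 55.3 and 58.2 CPM in control and 82.9, 83.6 and 82.0 CPM in Sev (log2 fold change 0.55, adjusted p = 0.000941). Replicates of each group lay close together, as for TNFRSF10B. TNFAIP3, the ubiquitin-editing enzyme A20, rose by 1.16 (adjusted p = 0.00229), and BIRC3, the ubiquitin ligase cIAP2, by 0.75 (adjusted p = 0.0171). The BIRC3 call was lost without control replicate 1 (0.73, adjusted p = 0.0525) or control replicate 3 (0.66, adjusted p = 0.0668). RBCK1, a subunit of the linear ubiquitin chain assembly complex, fell by 0.88 (adjusted p = 0.000307), TRADD, the adaptor of TNFRSF1A, by 0.58 (adjusted p = 0.00988) and MLKL, the executioner of necroptosis, by 1.03 (adjusted p = 0.011). TRADD overlaps FBXL8 on the opposite strand. The other genes called higher were FAIM at 0.82, CYLD at 0.21 and PEA15 at 0.21, named after their values were seen. With a library left out, FAIM kept its call in 2 of 6 fits, CYLD in 1 and PEA15 in 0 (adjusted p up to 0.123, 0.144 and 0.159). CASP8AP2, a protein that binds caspase-8, was the other gene that fell and was named after its values were seen. Its log2 fold change was -0.86 (adjusted p = 0.0144), and -0.84 without Sev replicate 1 (adjusted p = 0.0514).

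Of 10 genes of other caspases and downstream steps, all 10 were tested in edgeR, 0 rose and 2 fell, with a median log2 fold change of 0.14. Over all features tested 22.1% were higher and 21.5% lower, and the list's counts are given as a description. DESeq2's Wald test also called 0 of them higher, and 1, CYCS, the gene of cytochrome c, had an unadjusted p under 0.05 with a positive log2 fold change of 0.22. Without Sev replicate 2, CYCS was called higher (0.28, adjusted p = 0.032). APAF1, the scaffold of the apoptosome, had 27.6, 30.8 and 36.2 CPM in control and 14.5, 15.7 and 16.0 CPM in Sev, a fall of 1.03 on the log2 scale (adjusted p = 0.000628). CASP9, the initiator caspase that APAF1 activates, fell by 0.65 (adjusted p = 0.00754). APAF1 overlaps ANKS1B on the opposite strand. BID, the substrate that carries the caspase-8 signal to mitochondria, had 15.6 ± 1.15 CPM in control and 17.7 ± 0.325 CPM in Sev and did not pass (adjusted p = 0.19). CYCS and BID were named after their values were seen.

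Of 9 transcription factors known to act on death receptor genes, all were tested, 5 rose and 1 fell, with a median log2 fold change of 0.44, against 22.1% higher and 21.5% lower over all features tested. The number higher was 3 on log2(FPKM + 1) without a filter. ATF4, the effector of the integrated stress response, had 187, 172 and 177 CPM in control and 372, 410 and 349 CPM in Sev (log2 fold change 1.08, adjusted p = 0.000147). DDIT3, which encodes CHOP, a factor known to bind the TNFRSF10B gene, had 11.97, 15.1 and 14.8 CPM in control and 29.02, 28.2 and 30.6 CPM in Sev (log2 fold change 1.07, adjusted p = 0.00049). Both lay higher in every Sev library than in any control library. DDIT3 overlaps MARS1 and MBD6 on the opposite strand. NFKB1, the precursor of an NF-kB subunit, rose by 0.54 (adjusted p = 0.00622). The others called higher, named after their values were seen, were FOXO3 at 0.46 (adjusted p = 0.0102) and RELA, another NF-kB subunit, at 0.44 (adjusted p = 0.0414). RELA kept its call in 6 of 15 alternatives and lost it without Sev replicate 2 (adjusted p = 0.0838), control replicate 2 (0.119) or control replicate 3 (0.133). SP1 fell by 0.65 (adjusted p = 0.000625), from 148 ± 2.34 CPM to 94.4 ± 6.10 CPM. Its letters were the most frequent in the start site windows of the members, as they were in all windows searched. The part of these factors in the levels of the receptors was not tested.

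**Figure D5:**
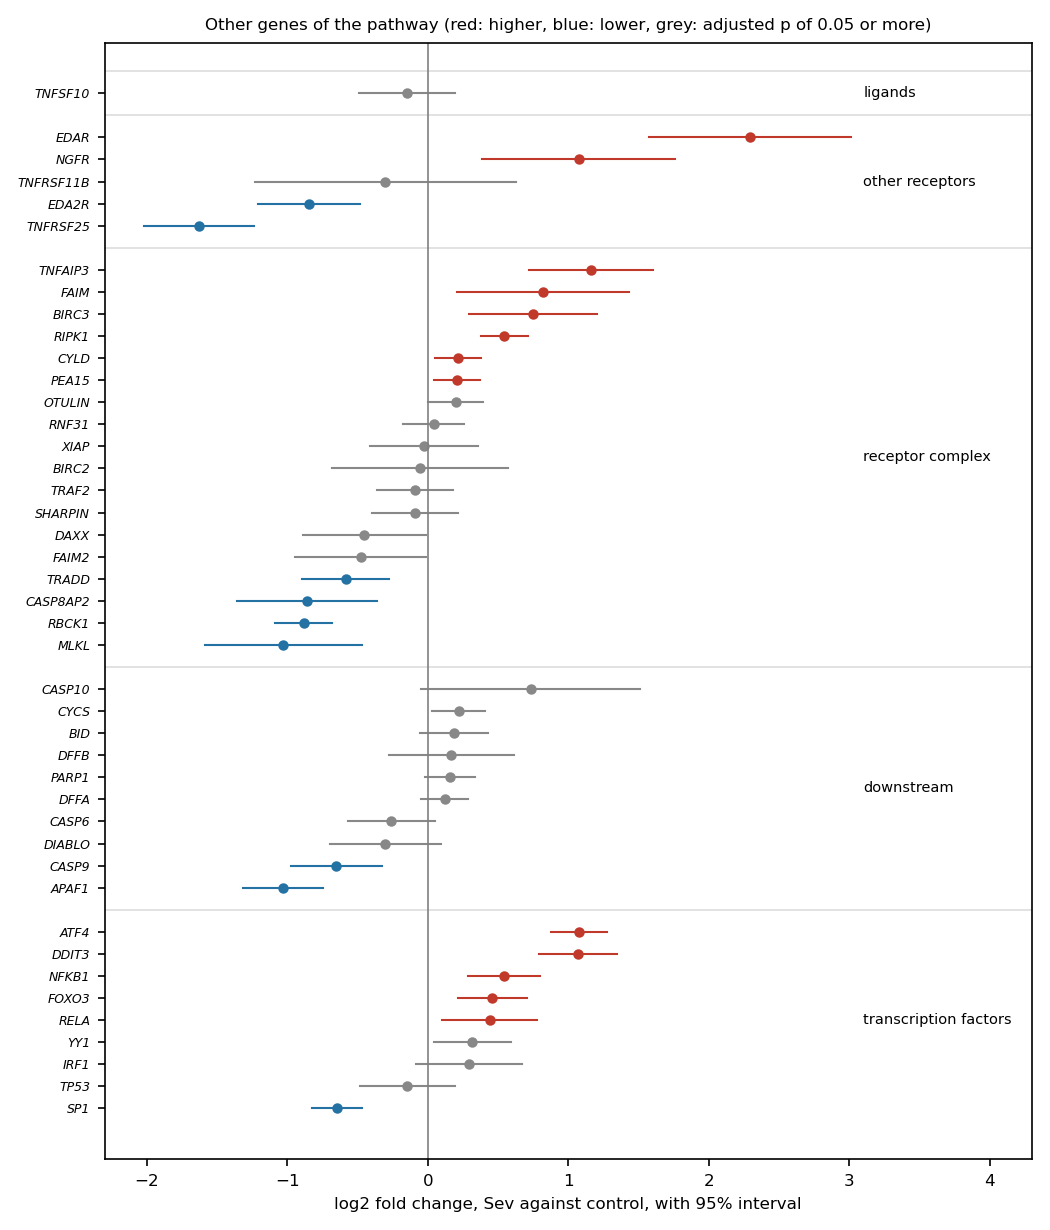
Log2 fold change of Sev over control for the 43 tested genes of the 5 pathway lists, ordered by list; points are edgeR estimates and bars their 95% intervals, with genes called higher in red, called lower in blue and the rest in grey. EDAR lies highest at 2.29 and TNFRSF25 lowest at -1.63.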

How the data were processed

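U251 RNA was depleted of ribosomal RNA and made into strand-specific libraries. The authors deposited raw counts per gene and, in a separate table, FPKM values for the same 61496 features. The submitters' processing notes name bcl2fastq 2.19, featureCounts and build hg18, and the aligner and the strand setting of the counting are not given in the sources used here. The tables hold no coordinates, so positions were joined by Ensembl ID from GENCODE 29 (GRCh38). Start windows are RefSeq sequence.

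Counts were filtered with filterByExpr, scaled by TMM and fitted with edgeR 4.0.16 in R 4.3.3 (glmQLFit, glmQLFTest, 3 against 3 libraries), with Benjamini-Hochberg adjustment over 27514 features. The script was tested on simulated data. Exact counting intervals are conditional binomial. Alternatives used DESeq2 1.42.0, limma 3.58.1 on log2(FPKM + 1) or log2(FPKM + 0.1), other filters, and leaving out libraries. Members and lists were chosen with earlier results of these data known. Named are all members, all ligands, up to 3 called genes with the smallest p per list and direction, and neighbours that overlap or were called. Some genes of the lists are not reported here.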

Additional observations from a re-analysis of the deposited data

How the results depend on the processing

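TNFRSF10B was called higher under all 15 alternatives, with log2 fold changes of 0.35 to 0.53 and adjusted p of 1.01e-07 to 0.00731. TNFRSF10A was called in the 12 edgeR, DESeq2 and unfiltered settings that gave it a value (adjusted p 1.64e-09 to 0.00455). Where a filter was used it entered through its Sev libraries alone, so these calls describe the gene and add no support. TNFRSF10A did not pass a filter of 10 counts in every library or of an FPKM of 0.5, so that 1 member was called higher there. In those settings, and on log2(FPKM + 1) without a filter, 0 members passed the study's threshold. Members called lower numbered 0 in the reported fit, 2 by library size alone (TNFRSF1A at -0.47 and CASP8 at -0.48), 1 in each of the 3 FPKM settings, and 0 to 1 with a library left out. The member called lower was TNFRSF1A on log2(FPKM + 0.1) (-0.48, adjusted p = 0.0255) and on log2(FPKM + 1) (-0.45, adjusted p = 0.0231 with the filter and 0.0497 without). With a library left out, TNFRSF1A ranged from -0.47 to -0.18 and FAS from -0.59 to -0.23. CFLAR changed sign, at 0.0092 under DESeq2 and under its size factors, at 0.011 with the replicate number as a block, and from -0.094 to 0.16 with a library left out, and was called in none of these. Other axis genes called higher were 6 in the FPKM settings and 8 to 13 with a library left out, 9 by library size alone, with no expression filter or with the replicate number as a block, and 13 under DESeq2 or a filter of 10 counts, against 13. Other receptors called higher were 0 in both filtered FPKM settings, where EDAR was not tested, and 1 without a filter.

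Scaling by library size alone shifted the median of all features by -0.14 on the log2 scale and moved the split of calls to 4665 higher and 7502 lower, 38.3% higher against 50.7% (6094 and 5920) under TMM. The FPKM settings shifted it by -0.12 to -0.14, with 35.4% to 40.0% of calls higher. In CPM in place of FPKM the mean ratios in control and Sev were 6.59 and 8.34 for CFLAR to CASP8, 204 and 378 for the death-domain receptors to the decoys, 2.09 and 3.01 for FADD to CASP8, 1.73 and 3.16 for TNFRSF10B to TNFRSF1A, and 10.4 and 19.0 for TNFRSF10B to CASP8, since CPM is not divided by length. Per kb of the longest coding transcript, an alternative added after seeing the data, they were 1.32 and 1.67 for CFLAR to CASP8, 3.32 and 4.80 for FADD to CASP8, 0.925 and 1.69 for TNFRSF10B to TNFRSF1A, and 7.36 and 13.4 for TNFRSF10B to CASP8. No setting of the lengths or unit made a ratio overlap that did not overlap in FPKM.

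Same-numbered control and Sev libraries did not deviate together (correlations -0.0072 to 0.027), so the numbers do not pair them. With the replicate number as a block, 10249 features were called against 12014, and no member changed its call. Outside the members the block ended the calls of CYLD (adjusted p = 0.0992), PEA15 (0.108), FAIM (0.0783), RELA (0.0743) and ENSG00000284948 (0.0669), which left 3 receptor complex genes higher. Not every library correlated best with its own number.

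Among uncalled axis genes, RNF31 changed sign at -0.10 (library size alone and log2(FPKM + 0.1)) and -0.086 (log2(FPKM + 1)), and DFFA at -0.019, -0.023 and -0.021. With a library left out, BIRC2 ranged from -0.31 to 0.22, XIAP from -0.21 to 0.060, RNF31 from -0.0068 to 0.082, DFFB from -0.019 to 0.31, TNFRSF11B from -0.52 to 0.037 and SHARPIN from -0.18 to 0.034. Counts limit TNFRSF10A in control, TNFRSF10C, TNFRSF10D and the ligands other than TNFSF10.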
